A study of Mus musculus with 4 samples.

Results

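The enzymes and helper proteins that prepare and crosslink collagen were followed through 10 genes: the lysyl oxidases Lox, Loxl1, Loxl2, Loxl3 and Loxl4, the lysyl hydroxylases Plod1, Plod2 and Plod3, the procollagen C-proteinase Bmp1 and its enhancer Pcolce. The members were chosen by gene symbol, and every probe outside the controls whose gene name was one of these symbols was taken. The 10 genes are among 29353 gene names on the array, and they had 15 of its 40628 gene probes. Where a gene had several probes they are called a, b and c, with a the brightest.

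Collagen is crosslinked in steps that begin inside the cell. Lysyl hydroxylases add a hydroxyl group to lysines of the nascent collagen chains in the endoplasmic reticulum, and this sets which crosslinks can form later. After secretion Bmp1, helped by Pcolce, removes the carboxy-terminal propeptide so that fibrils can assemble, and Bmp1 also releases the mature form of Lox from its precursor. Lysyl oxidases are copper-dependent amine oxidases that turn lysines and hydroxylysines of collagen and elastin into reactive aldehydes, which then join neighbouring molecules. Fibroblasts are the main source of this machinery in connective tissue.

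The samples were total RNA of transformed C3H10T1/2 cells, which derive from mouse embryo fibroblasts, on 4 one-colour Agilent arrays. The phorone group held 2 arrays of transformed cells exposed to 2 mM phorone, an unsaturated ketone known to bind glutathione and lower its level in cells, and the control group held 2 arrays of transformed cells without phorone. Cells of both groups had been transformed beforehand with the carcinogen 3-methylcholanthrene at 2.5 µg/ml for 2 days, and after 4 days in fresh medium with the phorbol ester TPA at 100 ng/ml for 2 weeks, followed by 4 weeks without either agent. How long phorone was applied, and in which vehicle, is not given in the sources used here. Nothing in the labels shows that replicates were grown as separate cultures, so the p-values reflect only how far these samples spread, and that spread may be technical.

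A log2 value of 0 stands here for the 75th percentile of the signal of its array, and a difference of 1 is a factor of 2. That percentile was 563 and 572 on the phorone arrays and 701 and 747 on the control arrays. The scanner software called 51.1% to 52.7% of the spots well above background on each array, and 0 spots were saturated. Over the kept gene probes the phorone arrays correlated at 0.995, the control arrays at 0.987 and arrays of different groups at 0.936 to 0.951. On the slide, row 2 held the phorone arrays and row 1 the control arrays, so an effect of the row cannot be told apart from one of phorone.

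Of the 15 member probes, 13 were kept for testing, and all 13 were well above background on all 4 arrays. The other 2, Loxl2 b and Loxl2 c, were not well above background on any array. Among the 13 probes, 6 were lower in phorone cells and 0 were higher (limma, adjusted p below 0.05 over all kept gene probes), while 7 were not called. At an unadjusted p below 0.05, 8 were lower and 0 were higher. The share of all kept gene probes at that unadjusted threshold was not counted, so no background stands beside these counts. The 6 called probes make 46.2% of the 13, where 20.3% of all 24205 kept gene probes were lower and 25.5% were higher. The median log2 fold change of the 13 probes was -0.77, against 0.11 for all kept gene probes. Counting each gene by its brightest kept probe, 5 of 10 members were lower, against 21.0% of 17031 genes, and 0 were higher, against 23.8%. With the arrays scaled on spiked-in control RNA in place of the 75th percentile, 3 of the 13 probes remained lower, both Lox probes and Pcolce, and 0 were higher. Under that scaling 5.75% of all kept gene probes were lower and 18.55% were higher. Of 10 fibroblast markers 7 were lower too, and in RNA of whole cultures fewer cells of a type and less RNA per cell cannot be told apart.

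**Figure D1:**
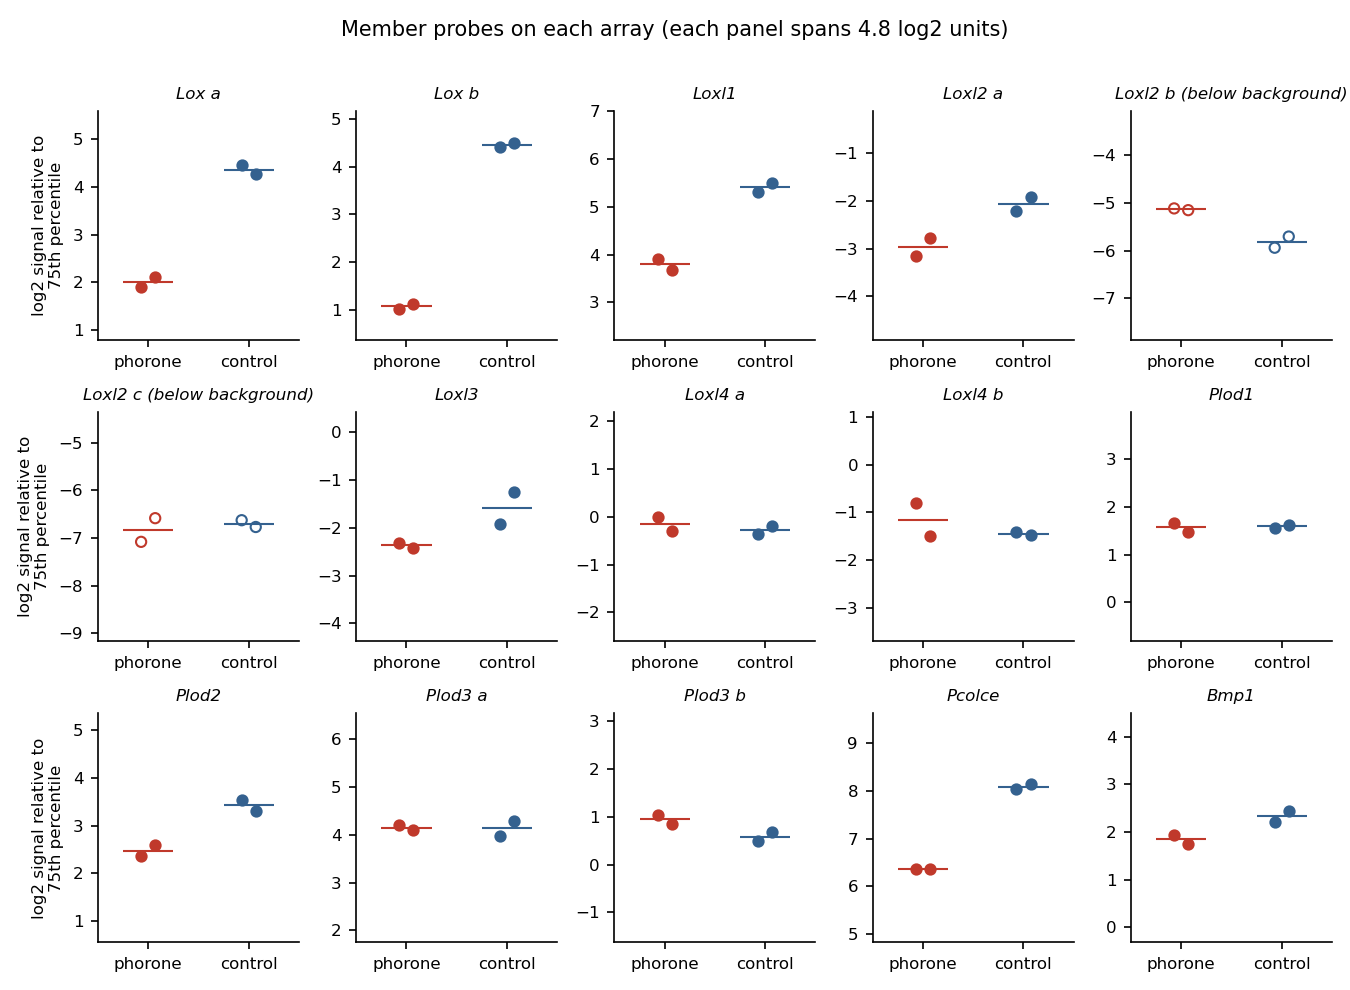
Values of the 15 member probes on each array, as log2 signal relative to the 75th percentile of the array; each point is 1 array, with phorone arrays in red on the left and control arrays in blue on the right, the line is the group mean, open points are not well above background, and every panel spans the same range of log2 units. Both Lox probes, Loxl1, Plod2 and Pcolce lie clearly lower on the phorone arrays, whereas the groups overlap for Plod1, Plod3 a and both Loxl4 probes.

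Lox, the founding lysyl oxidase and the main crosslinking enzyme of fibrillar collagen in fibroblasts, showed the largest decrease of the 10 genes. Lox a had log2 values of 1.90 and 2.12 on the phorone arrays, against 4.46 and 4.27 on the control arrays. Lox b had 1.02 and 1.13 on the phorone arrays, against 4.41 and 4.50 on the control arrays. All phorone values lay more than 2 log2 units below all control values on both probes.

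Lox a averaged 2.01 ± 0.16 in phorone cells and 4.36 ± 0.13 in control cells (SD, n = 2 each); the log2 fold change was -2.36 (SE 0.15, 95% interval -2.74 to -1.97, limma adjusted p = 0.000726), or 5.12-fold lower. Lox b averaged 1.07 ± 0.08 in phorone cells and 4.45 ± 0.07 in control cells, a log2 fold change of -3.38 (SE 0.13, 95% interval -3.71 to -3.05, limma adjusted p = 0.00028), or 10.4-fold lower. Only 1.24% of the kept gene probes had a lower fold change than Lox b, and 3.30% had a lower one than Lox a. The probes differ in the size of the decrease: the value of Lox b minus that of Lox a was -0.88 and -0.98 on the phorone arrays, against -0.05 and 0.23 on the control arrays.

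Loxl1, the family member best known for its part in elastic fibres, was also lower. It had log2 values of 3.92 and 3.67 on the phorone arrays, against 5.32 and 5.51 on the control arrays. The groups were more than 1 log2 unit apart. Loxl1 averaged 3.80 ± 0.17 in phorone cells and 5.42 ± 0.13 in control cells (SD, n = 2 each); the log2 fold change was -1.62 (SE 0.15, 95% interval -2.01 to -1.22, limma adjusted p = 0.00188), or 3.07-fold lower. Under spike-in scaling its log2 fold change was -1.11, which no longer passed the test (limma adjusted p = 0.0728). The probe is shown because it is the single measurement of Loxl1, a gene on chromosome 9, and because it shares a run of 16 bases with 1 other probe of the array, named C87499 in the files; among the 13 kept member probes it was the only one with such a run. The part that this shared run plays in its signal was not tested.
Loxl1: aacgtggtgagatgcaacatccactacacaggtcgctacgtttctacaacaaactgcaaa

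Loxl2, Loxl3 and Loxl4 form the branch of the family that carries scavenger receptor cysteine-rich domains in front of the catalytic domain. Loxl2, on chromosome 14, is known for crosslinking collagen IV of basement membranes. Loxl2 a had log2 values of -3.15 and -2.79 on the phorone arrays, against -2.21 and -1.93 on the control arrays, so that the groups did not overlap. It averaged -2.97 ± 0.26 in phorone cells and -2.07 ± 0.20 in control cells, a log2 fold change of -0.90 (SE 0.19, 95% interval -1.38 to -0.42, limma adjusted p = 0.0158), or 1.87-fold lower. This decrease is the least firm of those called. It missed the threshold without control replicate 2 (log2 fold change -0.76, limma adjusted p = 0.0564), without phorone replicate 1 (-0.72, adjusted p = 0.0558), with dim probes kept in the fit (adjusted p = 0.0568) and under spike-in scaling (-0.39, adjusted p = 0.541). With normexp background correction it was called, but at a log2 fold change of -0.38 (limma adjusted p = 0.0404), the smallest size in any of the 16 alternatives. That correction adds an offset of 50 to every signal, which shrinks the fold changes of dim probes. The processed signals of Loxl2 a were 63 and 83 on the phorone arrays, against 152 and 197 on the control arrays.

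The dim probes gave no second measurement of Loxl2. Loxl2 b stood at -5.12 and -5.15 on the phorone arrays, against -5.94 and -5.71 on the control arrays. Loxl2 c stood at -7.08 and -6.58 on the phorone arrays, against -6.63 and -6.77 on the control arrays. None of these 8 values was well above background, so they carry no fold change.

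Loxl3, on chromosome 6, oxidises lysines of collagen and, in mice, is needed for the palate and the spine. It had log2 values of -2.32 and -2.41 on the phorone arrays, against -1.92 and -1.26 on the control arrays. The groups did not overlap, and the SD of 0.47 over the control arrays was the widest of any control pair among the 13 probes. The log2 fold change was -0.77 (SE 0.24, 95% interval -1.40 to -0.15) with an adjusted p of 0.0520 from limma, just outside the threshold, and it was called in 6 of 16 alternatives. Without control replicate 1 it was -1.11 (limma adjusted p = 0.0115), without control replicate 2 it was -0.44 (limma adjusted p = 0.0738) and under spike-in scaling it was -0.26 (limma adjusted p = 0.690).

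Loxl4, on chromosome 19, was not called on either of its probes. Loxl4 a had log2 values of 0.0019 and -0.29 on the phorone arrays, against -0.36 and -0.18 on the control arrays. Loxl4 b had -0.80 and -1.50 on the phorone arrays, against -1.42 and -1.48 on the control arrays. The groups overlapped on both probes, and the first phorone array was the highest of the 4 on both. The log2 fold changes were 0.13 for Loxl4 a (95% interval -0.28 to 0.54, limma adjusted p = 0.542) and 0.30 for Loxl4 b (95% interval -0.34 to 0.94, limma adjusted p = 0.368). The intervals leave room for a decrease to -0.34 and an increase to 0.94 on the log2 scale, so the test does not show that the gene stayed level. The intervals of both Loxl4 probes nevertheless lie wholly above those of the Lox and Loxl1 probes.

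The probes of this branch are shown together, because Loxl2, Loxl3 and Loxl4 are close relatives and a probe that hit several of them would blur the differences just given. None of the 4 kept probes shares a run of 16 bases with any other probe. Only probes were searched and not transcripts, so whether a probe also binds the transcript of a relative was not tested. The sequences are as the array files give them; of the Loxl2 and Loxl3 probes the first 30 bases are printed, and no part is in capitals.
Loxl2 a: caccaaaggcttcgggactcctgtgtgtag
Loxl3: agggaacagtgcttgtgacagaagacaaca
Loxl4 a: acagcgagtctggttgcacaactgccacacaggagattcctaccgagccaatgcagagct
Loxl4 b: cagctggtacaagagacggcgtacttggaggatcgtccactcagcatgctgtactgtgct

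**Figure D2:**
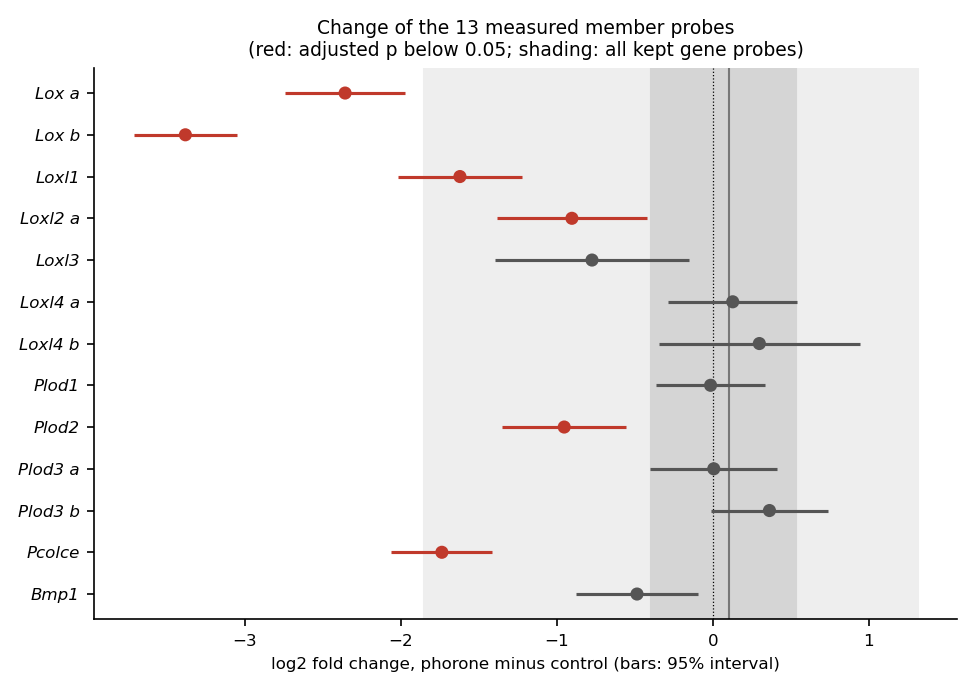
Log2 fold changes, phorone minus control, of the 13 kept member probes, with 95% intervals as bars; red marks an adjusted p below 0.05, dark shading holds the middle 50% of all kept gene probes (-0.40 to 0.54), light shading runs from their 5th to their 95th percentile (-1.85 to 1.31), and the solid vertical line is their median (0.11). Both Lox probes lie outside the light band, at -2.36 and -3.38, whereas Plod1, Plod3 and Loxl4 lie within the dark one.

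The lysyl hydroxylases divided: Plod2 was lower, and Plod1 and Plod3 were not called. Plod2, on chromosome 9, hydroxylates lysines in the telopeptides of collagen, the short ends outside the triple helix where crosslinks start. It had log2 values of 2.37 and 2.58 on the phorone arrays, against 3.54 and 3.32 on the control arrays. It averaged 2.48 ± 0.15 in phorone cells and 3.43 ± 0.16 in control cells, a log2 fold change of -0.95 (SE 0.15, 95% interval -1.35 to -0.56, limma adjusted p = 0.00777), or 1.93-fold lower. The groups did not overlap, and the call was lost under spike-in scaling (-0.44, limma adjusted p = 0.490). The files annotate the probe to both transcript variants of Plod2, which therefore cannot be separated.

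Plod1, on chromosome 4, hydroxylates lysines within the collagen triple helix. It had log2 values of 1.67 and 1.48 on the phorone arrays, against 1.55 and 1.63 on the control arrays. Both control values lay between the phorone values, and the log2 fold change was -0.01 (SE 0.14, 95% interval -0.36 to 0.34, limma adjusted p = 0.942). An increase or decrease beyond 0.36 on the log2 scale thus lies outside the interval.

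Plod3, on chromosome 5, combines lysyl hydroxylation with the transfer of sugars onto hydroxylysine. Plod3 a had log2 values of 4.20 and 4.10 on the phorone arrays, against 3.98 and 4.30 on the control arrays. Plod3 b had 1.05 and 0.85 on the phorone arrays, against 0.49 and 0.68 on the control arrays. The groups overlapped on Plod3 a and not on Plod3 b, where both phorone values lay above both control values. The log2 fold change was 0.0068 for Plod3 a (SE 0.16, 95% interval -0.40 to 0.41, limma adjusted p = 0.976) and 0.36 for Plod3 b (SE 0.15, 95% interval -0.01 to 0.74, limma adjusted p = 0.0980). The interval of Plod2 lies wholly below those of Plod1 and of both Plod3 probes.

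The hydroxylase probes are shown to set the one that was lower beside those that were not; 30 bases of the Plod2 probe and the whole Plod1 and Plod3 b probes are printed. None shares 16 bases with another probe, and transcripts were not searched.
Plod2: ctgaaagcctgggattctgacgcctactgg
Plod1: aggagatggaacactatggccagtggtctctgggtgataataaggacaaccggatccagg
Plod3 b: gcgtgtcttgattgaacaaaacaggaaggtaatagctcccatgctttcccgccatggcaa

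Pcolce and Bmp1 act together on the carboxy-terminal propeptide of fibrillar procollagens, and Pcolce was clearly lower. Pcolce, a secreted glycoprotein that binds the propeptide and speeds its removal, had log2 values of 6.36 and 6.36 on the phorone arrays, against 8.04 and 8.15 on the control arrays. The processed signals behind these values were 46298 and 46906 on the phorone arrays, against 183940 and 212780 on the control arrays, none of them saturated. It averaged 6.36 ± 0.0026 in phorone cells and 8.09 ± 0.08 in control cells (SD, n = 2 each); the log2 fold change was -1.74 (SE 0.13, 95% interval -2.06 to -1.41, limma adjusted p = 0.000979), or 3.33-fold lower. Only 5.58% of the kept gene probes had a lower fold change. The call held in all 16 alternatives, with log2 fold changes between -1.86 and -1.23.

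Bmp1, on chromosome 14, had log2 values of 1.95 and 1.74 on the phorone arrays, against 2.22 and 2.44 on the control arrays. The groups did not overlap. It averaged 1.84 ± 0.15 in phorone cells and 2.33 ± 0.16 in control cells, a log2 fold change of -0.49 (SE 0.15, 95% interval -0.88 to -0.09) that missed the threshold (limma adjusted p = 0.0531). It was called lower in 5 of 16 alternatives, and under spike-in scaling the log2 fold change was 0.03 (limma adjusted p = 0.971). The interval of Pcolce lies wholly below that of Bmp1. The probes of the pair are shown by their first 30 bases. Neither has a run of 16 bases in common with another probe, and transcripts were not searched.
Pcolce: aacctaagcaagaggaagtgtccctcccaa
Bmp1: cacactgtattgtgtatagccggtgtccct

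Over the 13 kept probes the groups did not overlap on 9, of which 8 were lower and 1, Plod3 b, was higher in phorone cells. Among all kept gene probes, 32.9% were lower and 45.0% were higher without overlap. The GC content of the probes spans 35% for Lox b to 55% for Pcolce, Plod3 a and both Loxl4 probes.

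The promoters of Plod3 and Pcolce, both on chromosome 5, are shown because Pcolce was lower while neither Plod3 probe was called. The windows run from 250 bases before the annotated start to 50 bases after it, in RefSeq's GRCm38.p6 annotation; 4 of the 10 members were matched in the table of windows, namely Plod1, Plod3, Pcolce and Loxl4. The motifs searched on both strands were the AP-1 site TGANTCA, the antioxidant response element TGACNNNGC, the hypoxia response element core ACGTG, the SMAD element GTCTAGAC, its shorter form CAGAC and the TATA box TATAAA. They occur in 7.81%, 12.4%, 19.6%, 0.213%, 49.6% and 13.6% of 32851 promoter windows of this length, in that order. Capitals mark matches, and 0 matches overlapped in the windows of the 4 members.
Plod3 promoter, chr5:136986769-136987068, plus strand: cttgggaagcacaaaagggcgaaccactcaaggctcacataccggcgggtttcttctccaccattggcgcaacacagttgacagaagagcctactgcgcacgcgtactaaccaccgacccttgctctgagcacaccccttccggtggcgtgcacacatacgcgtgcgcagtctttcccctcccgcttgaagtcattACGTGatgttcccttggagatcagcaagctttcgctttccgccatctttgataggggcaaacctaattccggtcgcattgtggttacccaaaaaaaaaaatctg
Pcolce promoter, chr5:137611355-137611654, minus strand: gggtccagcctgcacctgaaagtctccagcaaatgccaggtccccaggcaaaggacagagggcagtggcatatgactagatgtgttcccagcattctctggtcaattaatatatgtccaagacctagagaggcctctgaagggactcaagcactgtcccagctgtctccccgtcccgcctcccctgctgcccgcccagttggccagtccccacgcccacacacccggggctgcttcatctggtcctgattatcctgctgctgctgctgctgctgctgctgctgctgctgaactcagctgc
The Plod3 window held 1 match, ACGTG at position -54 relative to the start, and the Pcolce window held none of these motifs. The Plod1 window held a TATAAA match at -232 and a CAGAC match at -74, both on the reverse strand, and the Loxl4 window held a CAGAC match at -226. A match is a description of the letters and not a bound site.

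The members work on collagen chains that other enzymes modify, fold and export. A list of 44 genes, here called the pathway or collagen biosynthesis list, was set beside them. Besides genes of those steps and of propeptide processing, it holds collagen and elastin substrates, partners and regulators of lysyl oxidases, and Tgm2. Of the 44 genes, 43 had a probe and 36 were measured. By the brightest kept probe, 22 of the 36 were lower (61.1%), 1 was higher and 13 were not called, with a median log2 fold change of -0.84. The corresponding shares of all genes were 21.0% lower and 23.8% higher, with a median of 0.08. Under spike-in scaling 9 of the 36 were lower, where 5.75% of all kept gene probes were lower and 18.55% were higher.

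Of the collagen substrates, 6 of 7 measured genes were lower, with a median log2 fold change of -1.33. Col3a1, a chain of the fibrils of soft tissue, had log2 values of 3.49 and 3.72 on the phorone arrays, against 6.97 and 6.99 on the control arrays, and was 10.4-fold lower (log2 fold change -3.38, SE 0.14, limma adjusted p = 0.000319). Col11a1, a minor chain that sits inside fibrils, was 25.5-fold lower (log2 fold change -4.67, SE 0.17, limma adjusted p = 0.000278). Col1a2, a chain of collagen I, was 2.18-fold lower (log2 fold change -1.12, SE 0.13, limma adjusted p = 0.00342).

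The probes of Col1a1, the other collagen I chain, disagreed. The brightest had log2 values of 7.28 and 7.33 on the phorone arrays, against 7.60 and 7.61 on the control arrays, and was not called (log2 fold change -0.30, limma adjusted p = 0.101). The 2 dimmer probes were lower, with log2 fold changes of -2.21 and -1.44 (limma adjusted p = 0.00154 and 0.00514). The remaining substrate, Eln, the elastin gene that is named here after its values were seen, was well above background on only 1 of the 4 arrays and was not tested.

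Prolyl hydroxylation, the other hydroxylation step of collagen, had 6 of 10 genes lower and 4 not called, with a median log2 fold change of -0.70. P4ha3, a catalytic subunit of prolyl 4-hydroxylase, was not well above background on the phorone arrays and was at least 4.13-fold lower there. With this gene at its bound the medians are the same. P4ha3 was kept through the control arrays alone, and it is counted as lower here and in the whole list. P3h2, a prolyl 3-hydroxylase, was 3.87-fold lower (log2 fold change -1.95, SE 0.17, limma adjusted p = 0.00158) and well above background on 1 of the 2 phorone arrays. P4hb, the shared partner subunit that is also a disulfide isomerase, had log2 values of 5.97 and 6.05 on the phorone arrays, against 6.4 and 6.5 on the control arrays, and was 1.36-fold lower (log2 fold change -0.44, limma adjusted p = 0.0409).

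Colgalt1, which adds galactose to the hydroxylysines that the Plod enzymes make, was 1.63-fold lower (log2 fold change -0.70, SE 0.15, limma adjusted p = 0.0174). Of the 7 measured genes for folding and export, 3 were lower, 1 was higher and 3 were not called. Creb3l1, a transcription factor of the secretory pathway that acts on collagen genes, was 3.21-fold lower (log2 fold change -1.68, SE 0.22, limma adjusted p = 0.00407), and Fkbp10, a collagen chaperone, was 1.93-fold lower (log2 fold change -0.95, SE 0.16, limma adjusted p = 0.0079). Mia3, which loads procollagen into transport carriers, was the gene called higher (log2 fold change 0.43, SE 0.12, limma adjusted p = 0.0416), and 0 genes of the list were called higher under quantile normalisation, under median scaling, without a filter on dim probes, with noncoding probes in the fit, with a replicate block and without any 1 array.

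Propeptide processing at the amino-terminal end had a decrease in Adamts2, the procollagen N-proteinase, which was 3.23-fold lower (log2 fold change -1.69, SE 0.13, limma adjusted p = 0.00114). By the brightest probe it was the single called gene among 3 measured of 6 in the propeptide processing group. That group is not limited to the amino-terminal end. The probes of Adamts14, a related proteinase named here after its values were seen, disagreed. The brightest was not called (log2 fold change -0.18, limma adjusted p = 0.391). The dimmer one, kept through the control arrays alone, was not well above background on the phorone arrays and at least 2.37-fold lower there. Adamts3, Tll1 and Tll2, also named after their values were seen, were not well above background on any array. Pcolce2, named after its values were seen too, was measured and not called. It had log2 values of 2.72 and 2.89 on the phorone arrays, against 2.32 and 2.55 on the control arrays. Its log2 fold change was 0.38 (limma adjusted p = 0.0956), opposite in sign to that of Pcolce. Of 7 measured partners and regulators of lysyl oxidases, 4 were lower and 3 were not called, with a median log2 fold change of -1.60. Dcn, a small proteoglycan that coats collagen fibrils, had log2 values of 0.77 and 0.84 on the phorone arrays, against 5.33 and 5.32 on the control arrays, and was 23.0-fold lower (limma adjusted p = 0.000227). Postn, a matricellular protein that brings Bmp1 to its substrates, was 8.33-fold lower (log2 fold change -3.06, SE 0.15, limma adjusted p = 0.000445). Tgm2, which crosslinks matrix proteins by another chemistry, was 3.49-fold lower (log2 fold change -1.80, SE 0.12, limma adjusted p = 0.000849).

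**Figure D3:**
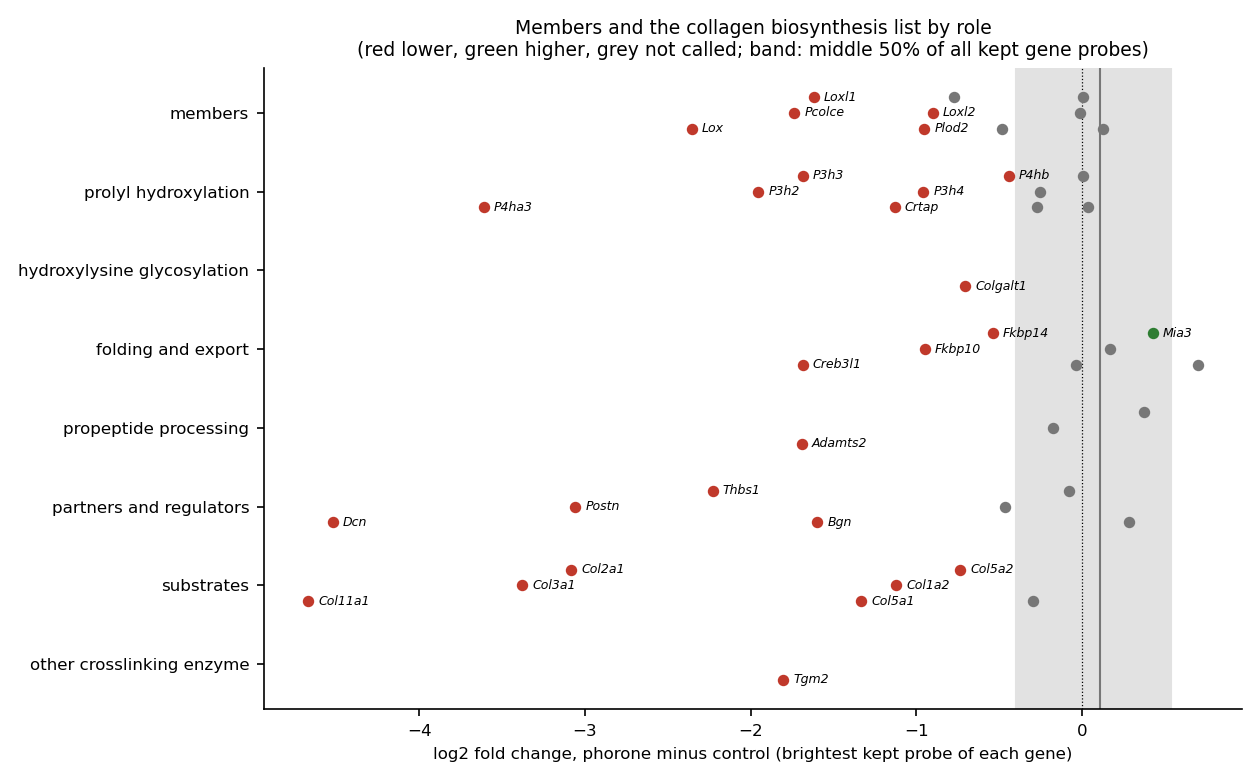
Log2 fold change, phorone minus control, of each measured gene by its brightest kept probe, for the members and for the collagen biosynthesis list in rows by role; red is lower, green is higher and grey is not called, the band holds the middle 50% of all kept gene probes and the solid line is their median. The members run from -2.36 for Lox to 0.13 for Loxl4, and the substrates from -4.67 for Col11a1 to -0.30 for Col1a1; the point of P4ha3 is a fitted value of a gene that is not well above background in phorone cells, where the measured bound is at least 4.13-fold lower.

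Most markers of the labelled cell type were lower in phorone cells too. Of 10 fibroblast and mesenchyme markers, 9 were well above background on both phorone arrays and 10 on both control arrays. By the brightest probe 7 were lower and 3 not called, with a median log2 fold change of -1.48. The 3 were Vim (log2 fold change -0.36, limma adjusted p = 0.0789), Thy1 (-0.46, limma adjusted p = 0.0522) and Twist1 (-0.27, limma adjusted p = 0.296). The dimmer Thy1 probe stood at 0.26 (limma adjusted p = 0.297). The summed signal of the 10 markers, in units of the 75th percentile, was 524 and 552 on the phorone arrays, against 1343 and 1405 on the control arrays. S100a4 and Col1a2 made most of it on each array. Fap, a fibroblast surface protease counted among the 7, was not well above background on the phorone arrays and was at least 17.6-fold lower there. It was kept through the control arrays alone. S100a4 (log2 fold change -1.81, limma adjusted p = 0.000827) and Pdgfra (-2.98, limma adjusted p = 0.000361) were also lower. Col1a2 and Col3a1 belong to both lists. The part of the fibroblast markers in the decrease of the crosslinking genes was not tested.

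Of other cell types, 3 of 5 epithelial, 4 of 5 endothelial, 3 of 5 leukocyte, 3 of 4 adipocyte and 3 of 5 skeletal muscle markers were not well above background on any array. The defining genes Cdh1, Pecam1, Cdh5, Ptprc, Itgam, Adipoq, Myod1 and Myog were among them. The summed leukocyte signal was 0.506 and 0.696 on the phorone arrays, against 0.237 and 0.286 on the control arrays. Most of it on each array was Cd68, which was higher (log2 fold change 1.26, limma adjusted p = 0.00936). The summed signal of the muscle list was 1.39 and 1.92 on the phorone arrays, against 6.19 and 7.24 on the control arrays. Most of the muscle sum on each array was 1 gene, Acta1 (log2 fold change -2.07, limma adjusted p = 0.00221). Des, the other muscle gene tested, was lower too (-1.79, limma adjusted p = 0.000959). That of the adipocyte list was 3.52 and 4.15 on the phorone arrays, against 6.68 and 5.28 on the control arrays, and nearly all of it was Fabp4. That of the endothelial list was 0.0394 and 0.0632 on the phorone arrays, against 0.104 and 0.111 on the control arrays. Its 1 tested gene, Tek, was kept through the control arrays alone. Tek was not well above background on the phorone arrays and was at least 1.68-fold lower there. That of the epithelial list was 0.159 and 0.163 on the phorone arrays, against 0.162 and 0.161 on the control arrays. The part of these markers in the results was not tested.

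The size of every member's change depended on how the arrays were put on 1 scale. The spiked-in control RNA had a median log2 signal of 11.9 and 11.7 on the phorone arrays, against 12.3 and 13.1 on the control arrays, over 7 probes. This signal differed more between the 2 control arrays than between the 2 phorone arrays, and the scaling carries that spread into every probe. The part of that spread in the lost calls was not tested. Scaling on the spiked-in RNA moved the median log2 fold change of all kept gene probes by 0.51. Fewer probes were then called in both directions: 4490 were higher, against 6168 with the 75th percentile, and 1391 were lower, against 4917. Of all calls 76.3% were then higher, against 55.6%. Each member's log2 fold change moved up by that same amount, so that their order and their distances from the median of all probes did not change. Lox a then stood at -1.85 (limma adjusted p = 0.00148) and Pcolce at -1.23 (limma adjusted p = 0.0457). Quantile normalisation and median scaling moved the median of all probes by -0.04 each.

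**Figure D4:**
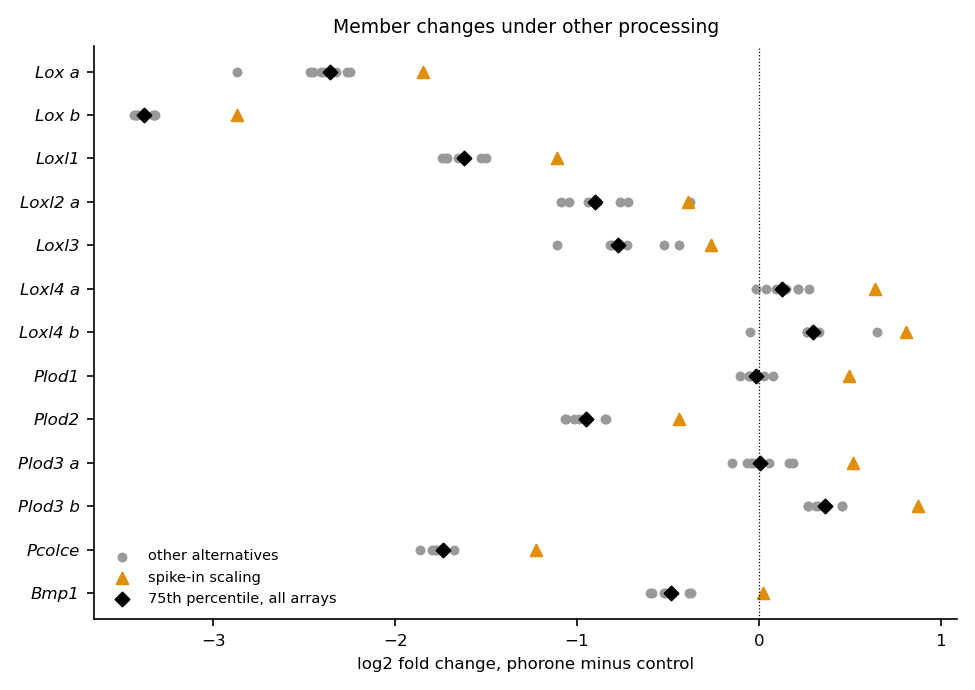
Log2 fold change, phorone minus control, of the 13 kept member probes under the 75th percentile scaling (black diamonds), spike-in scaling (orange triangles) and the other alternatives (grey points). Spike-in scaling moves every probe to the right by 0.51; both Lox probes, Loxl1, Loxl2 a, Loxl3, Plod2 and Pcolce stay below 0 in every alternative, and Bmp1 reaches 0.03.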

How the data were processed

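Each deposited scanner file holds intensity values that, per the file headers, Agilent Feature Extraction 10.7.3.1 made from a single dye, Cy3, as a processed signal that the software had corrected for background. A value table that the authors deposited is on the log2 scale; set against the scanner values, each column equalled the log2 processed signal less a constant of its array (SD around it at most 0.0223), with medians of -4.37 and -4.30 on the phorone arrays and -4.39 and -4.35 on the control arrays, so its scale, centring and direction are known.

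The processed signal was turned into log2 values, from which the 75th percentile of the array was subtracted. That percentile was taken over all 61657 spots of the 61307 probes outside the controls, outlier-flagged spots included. For the probe values outlier-flagged spots were left out, which removed 111 probes, and spots of a probe were averaged. A gene probe was kept where both arrays of 1 or both groups were well above background. The comparison used limma 3.58.1 (R 4.3.3, two-sided, 2 residual and 3.08 prior degrees of freedom), with Benjamini-Hochberg adjustment over all 24205 kept gene probes and calls below 0.05. Fold changes are phorone minus control. The fit was also run on simulated data with far fewer changed probes than were called here, so that run does not give the error rate of these calls. Where neither array of a group was well above background, the fold is a bound: the dim group's mean was replaced by the mean, over its arrays, of the lowest value that any probe well above background had, or of the probe's own value if higher. The precision is limited by the number of arrays, 2 a group.

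Groups and replicate numbers came from the sample titles. Gene probes were named through RefSeq accessions with a GRCm38.p6 table, which matched 28136 of 40628 (69.25%); the others kept the files' names. The files list the member probes as unmapped, so no probe coordinates are given. Probe sequences are those of the array files. The members, the gene lists and the tests were chosen with earlier results of these data known. Described are all members with every probe, and from each subgroup of the pathway list the 2 called genes with the largest change in each direction, plus Col1a1, Col1a2, Col3a1 and P4hb; the markers were named as the most changed or as defining genes. Alternatives covered the scaling between arrays, the background correction (normexp with an offset of 50), the value table, the filter on dim probes and the probes in the fit. They also covered the variance model, a replicate block and leaving out each array.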

Additional observations from a re-analysis of the deposited data

How the results depend on the processing

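With 2 arrays a group, 16 alternatives were run. Both Lox probes and Pcolce were called lower in every alternative that could fit them. Of the 13 member probes, 3 were lower under spike-in scaling, against 6 with the 75th percentile, and 5 to 8 under the others (5 to 7 when 1 array was left out); 0 were higher in any. Of the pathway list, 9 genes were lower under spike-in scaling, against 22, and 19 to 22 when 1 array was left out. The 1 gene of that list called higher became 0 under quantile normalisation, median scaling, no filter on dim probes, noncoding probes in the fit and the replicate block, and 0 to 0 when 1 array was left out. Over all probes, 1391 were lower under spike-in scaling, against 4917, and 3599 to 4750 when 1 array was left out; 3823 were higher with no filter on dim probes, against 6168, and 3501 to 5812 when 1 array was left out, the lowest without phorone replicate 2. Without the filter 40557 probes were fitted, against 24205 with it. The causes of these differences in counts were not tested.

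Only probes that were not called changed sign. Under spike-in scaling Bmp1 stood at 0.025 and Plod1 at 0.50. Plod3 a stood at -0.064 under quantile normalisation, -0.030 under median scaling and -0.0064 under normexp. With 1 array left out, Plod1 ranged from -0.11 (without phorone replicate 1) to 0.079 (without phorone replicate 2), Plod3 a from -0.15 (without control replicate 1) to 0.16 (without control replicate 2), Loxl4 a from -0.018 to 0.27 and Loxl4 b from -0.051 to 0.65, the low ends of the last pair without phorone replicate 1 and their high ends without phorone replicate 2. The cause was not tested.

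The replicate numbers of the titles were checked for pairing: deviations of same-numbered arrays correlated at -0.04, which does not show that they pair the samples. With the replicate block 7 member probes were lower, Loxl3 being added (limma adjusted p = 0.0484), and 20 genes of the pathway list were lower and 0 higher; over all probes 4501 were lower and 5252 higher.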

Other observations

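The array also carried a probe for LOC100044003, which the files describe as similar to lysyl oxidase-like 3. It had log2 values of -2.43 and -2.14 on the phorone arrays, against -2.14 and -2.08 on the control arrays, and was not called (log2 fold change -0.18, SE 0.15, limma adjusted p = 0.365).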
